A study of Mus musculus with 12 samples.

Results

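Comp, S100b and Smoc2 are genes of cartilage and other connective tissues, and their levels were followed in primary bone marrow stroma from mice with 1 inactive copy of Crebbp, mice with 1 inactive copy of Ep300, and wild-type mice. The genes were taken by symbol, as every probe set (a set of short probes read together as 1 level for a transcript) annotated to exactly 1 of these symbols. Each gene had 1 such probe set, so they are 3 genes of the 1974 named in the table. The genes had been chosen because they were low in Crebbp+/- stroma, so their differences between Crebbp+/- and the other genotypes are described here and not tested.

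There were 4 Crebbp+/-, 4 Ep300+/- and 4 wild-type arrays, which the labels call biological replicates without saying whether mice were pooled. All mice were C57BL/6 and 3 to 4 months old. Stroma, the adherent layer that supports blood-forming cells, was grown from plated marrow for 2 weeks, and every layer received 1500 cGy of radiation and fresh medium before total RNA was taken. The groups thus share irradiation and culture, and no unirradiated stroma was analysed here. Such layers are mixed cultures, in which fewer cells of a type and less RNA per cell cannot be told apart.

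COMP (cartilage oligomeric matrix protein) is a secreted glycoprotein of the thrombospondin family that binds collagens and is abundant in cartilage, tendon and ligament. S100B is a small EF-hand calcium sensor found in chondrocytes and, at high levels, in astrocytes and Schwann cells. SMOC2 is a secreted, SPARC-related matrix protein. All of them bind calcium. Crebbp and Ep300 encode closely related histone acetyltransferases that many transcription factors recruit as coactivators, among them SOX9, the principal regulator of cartilage genes.

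Values are log2 levels made by the authors with GCRMA, on which a difference of 1 is a 2-fold difference, and they cannot be compared between probe sets. The array medians over 3109 probe sets lay between 7.98 and 8.43. Crebbp itself, the check of the label, was at 7.74 ± 0.091 in Crebbp+/-, 8.65 ± 0.12 in Ep300+/- and 8.52 ± 0.058 in wild-type stroma (mean ± SD, n = 4 each). For Ep300 no probe set was analysed here, which leaves the Ep300+/- label without such a check. Whether the Crebbp probe set lies inside the inactivated stretch was not determined. The Y-linked Eif2s3y read 2.73 on Crebbp+/- 1 and 2.69 on Crebbp+/- 3, whereas the remaining 10 arrays lay at 8.41 to 10.84. The labels give no sex, so whether the mice differed in sex was not determined. Low Eif2s3y occurred only on Crebbp+/- arrays, so a difference in sex could not be fully separated from genotype. The median difference over all probe sets was 0.24 for Crebbp+/- minus wild type, against 0.044 after median centring and 0.022 after quantile normalization.

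Of the 3 genes, S100b has an entry in the RefSeq promoter table used here, and it is shown so that the bases at the start of a gene with low Crebbp+/- levels can be read. The sequence runs from 250 bases before to 50 bases after the start of the gene (GRCm38.p6, chr10:76253586-76253885, plus strand), and capitals mark CCAAT boxes on either strand.

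S100b: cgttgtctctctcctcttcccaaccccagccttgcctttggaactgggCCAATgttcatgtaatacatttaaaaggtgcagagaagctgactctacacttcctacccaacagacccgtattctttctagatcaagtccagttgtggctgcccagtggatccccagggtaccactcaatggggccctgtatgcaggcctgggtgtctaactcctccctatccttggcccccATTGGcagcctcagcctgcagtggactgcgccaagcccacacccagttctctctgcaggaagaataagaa

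The motifs searched on both strands were CCAAT, the CREB half-site TGACG, the SOX core ACAAT and the TATA box TATAAA. The CCAAT box had 2 matches, at -202 and -20 counted from the start, and 37.4% of the 32851 promoters in the table hold at least 1. The other motifs had 0 matches in this window, against 20.8% of promoters with the CREB half-site, 31.0% with the SOX core and 13.6% with the TATA box. The genes lie on 3 different chromosomes, and Crebbp lies on none of them.

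The first comparison asks how the levels stood in stroma with 1 inactive Crebbp copy. Comp was at 7.15, 7.26, 7.71 and 7.73 on the Crebbp+/- arrays, against 9.71, 9.90, 10.94 and 10.15 on the wild-type arrays. The groups do not overlap, and the gap between the highest Crebbp+/- and the lowest wild-type array was 1.98. The Crebbp+/- mean was 7.47 ± 0.30 and the wild-type mean 10.18 ± 0.54 (SD, n = 4 each), a log2 difference of -2.71 (limma SE 0.30), which put Comp at 15.3% of its wild-type level. Wild-type 3 was the highest array for Comp, and without it the difference was -2.45.

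S100b was at 5.50, 5.33, 5.71 and 5.37 on the Crebbp+/- arrays, against 7.19, 7.01, 7.02 and 7.55 on the wild-type arrays. Every Crebbp+/- array again lay below every wild-type array, with a gap of 1.30. The means were 5.48 ± 0.17 in Crebbp+/- and 7.19 ± 0.25 in wild-type stroma (SD, n = 4 each), a log2 difference of -1.71 (limma SE 0.22) that left 30.5% of the wild-type level. With each array centred on its median the S100b difference was -1.91.

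Smoc2 was at 4.63, 4.61, 5.15 and 4.94 on the Crebbp+/- arrays, against 6.78, 6.61, 6.43 and 6.90 on the wild-type arrays. The gap was 1.28. The means were 4.83 ± 0.26 in Crebbp+/- and 6.68 ± 0.21 in wild-type stroma (SD, n = 4 each), a log2 difference of -1.85 (limma SE 0.37) that left 27.8% of the wild-type level. The table carries no detection calls, and the low levels of S100b and Smoc2 in Crebbp+/- stroma can lie near background. The sizes of the S100b and Smoc2 differences, and the percentages given for them, are therefore uncertain.

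**Figure D1:**
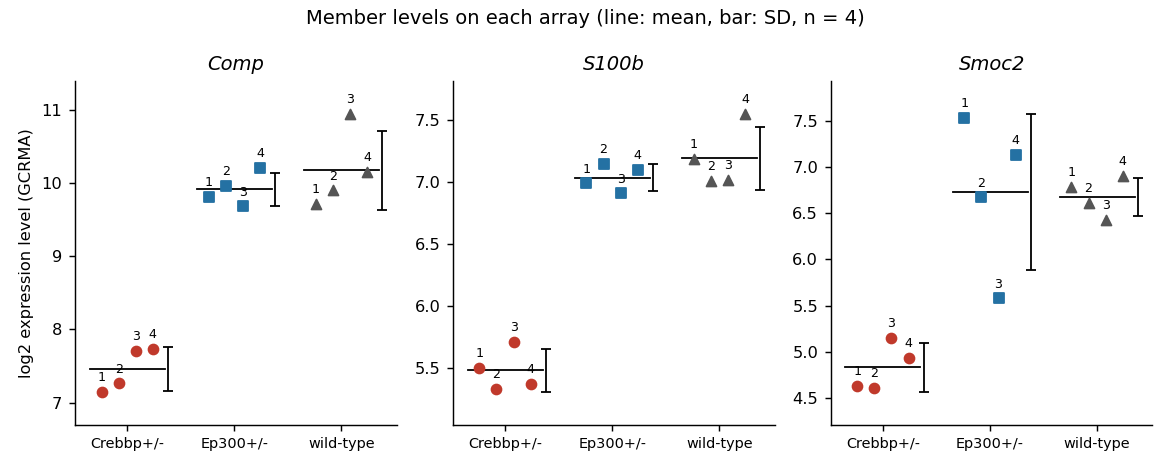
Log2 levels of Comp, S100b and Smoc2 (vertical axes) on each array, by genotype, with replicate numbers over the points, lines at the means and bars of 1 SD (n = 4). All Crebbp+/- arrays lie below all Ep300+/- and wild-type arrays in each panel, and Smoc2 on Ep300+/- 3, at 5.58, lies nearest to the Crebbp+/- arrays.

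All 3 members thus had Crebbp+/- arrays wholly below the wild-type arrays, as did 8.46% of all probe sets, while 10.4% lay wholly above. Since the members were chosen on this comparison, nothing is read from that count. The order of the arrays was not shared. Within Crebbp+/- stroma Comp was highest on array 4, and S100b and Smoc2 were highest on array 3. Within wild-type stroma Comp was highest on array 3, and S100b and Smoc2 were highest on array 4.

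The deposited table holds only probe sets that varied across the arrays. Read from the values, the smallest interquartile range was 0.5001, and no probe set had fewer than 3 arrays reaching 6.64, which is 100 on the linear scale. Comp was at or above it on all 12 arrays. S100b reached it on 8 arrays and on 0 of the 4 Crebbp+/- arrays, and Smoc2 reached it on 5 arrays, 0 Crebbp+/-, 3 Ep300+/- and 2 wild-type. S100b and Smoc2 were therefore in the table through their higher groups. A listed gene is called measured below when this filtered table holds a probe set with its symbol alone. A gene not measured may have varied little, been low, or had no such probe set.

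The second comparison asks whether loss of 1 Ep300 copy moved the same genes. Comp was at 9.81, 9.96, 9.68 and 10.21 on the Ep300+/- arrays, and its log2 difference from wild type was -0.26 (95% interval -0.90 to 0.38, limma adjusted p = 0.965). S100b was at 6.99, 7.15, 6.91 and 7.10, with a difference of -0.15 (95% interval -0.63 to 0.32, limma adjusted p = 0.965). Both genes overlapped with wild type, as did Smoc2, where 2.16% of all probe sets lay wholly below and 1.99% wholly above. Both intervals leave out differences as large as those seen in Crebbp+/- stroma.

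Smoc2 was at 7.53, 6.67, 5.58 and 7.13 on the Ep300+/- arrays, both above and below the wild-type range. Its difference from wild type was 0.047 (95% interval -0.74 to 0.84, limma adjusted p = 0.997), and its Ep300+/- SD was 0.84, against 0.21 in wild-type stroma. The value turned on single arrays: it was 0.43 without Ep300+/- 3 and -0.22 without Ep300+/- 1. The inflammatory cytokine Tnf stood at 14.36 on Ep300+/- 3 and 12.29 on Ep300+/- 2, against 7.76 to 9.03 in wild-type stroma. On Crebbp+/- 3, which had the highest Smoc2 of its group, Tnf stood at 14.38. The part of Tnf in the Smoc2 level of either group was not tested. Over all 3109 probe sets, limma called 0 (0%) for Ep300+/- against wild type, and 126 had an unadjusted p under 0.05. The wild-type arrays in this comparison are the ones used in choosing the members, so it is not wholly independent of that choice.

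Set directly against each other, the heterozygotes differed in Comp by -2.45 (SE 0.30), in S100b by -1.56 (SE 0.22) and in Smoc2 by -1.90 (SE 0.37), Crebbp+/- minus Ep300+/-. These values share the Crebbp+/- arrays with the first comparison and are given as a description. The gaps between the highest Crebbp+/- and the lowest Ep300+/- array were 1.95 for Comp, 1.20 for S100b and 0.43 for Smoc2. Of all probe sets 4.34% lay wholly below and 9.13% wholly above in this comparison. The lowest levels of all 3 genes were thus in Crebbp+/- stroma. The order of Ep300+/- and wild type was not resolved, since those differences were smaller than their intervals. Of all probe sets, 81 (2.61%) had every Crebbp+/- array below every other array, the members among them.

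**Figure D2:**
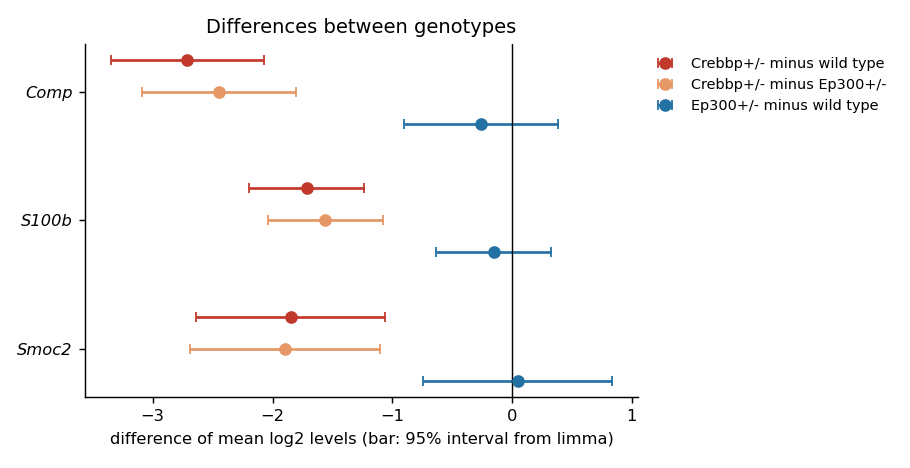
Differences of mean log2 levels for Comp, S100b and Smoc2 (horizontal axis) between genotypes, with 95% intervals from limma. The Crebbp+/- differences lie between -2.71 and -1.56, and all Ep300+/- minus wild-type intervals include 0.

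Other features of the Crebbp+/- arrays differed from wild type as well, though not on every array. Markers of endothelial cells, which line vessels, were measured for 13 of 14 genes, with array means of 7.88 to 9.83 in Crebbp+/- and 7.05 to 8.22 in wild-type stroma. Crebbp+/- 4 was the array at 7.88, above every Ep300+/- array (6.49 to 7.44) and above all wild-type arrays except wild-type 1. The part of these markers in the members' differences was not tested. Without Crebbp+/- 4 the Crebbp+/- minus wild-type differences were -2.80, -1.68 and -1.89 in the order Comp, S100b and Smoc2. Without Crebbp+/- 1 and 3, the arrays of low Eif2s3y, they were -2.68, -1.84 and -1.91. With Eif2s3y as a covariate they were -2.58, -1.87 and -2.05.

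The members were also set against Crebbp level. Genotype splits the arrays into separate clusters on both axes, so no correlation over all 12 was computed, and 4 Crebbp+/- arrays are too few for one. Over the 8 Ep300+/- and wild-type arrays, where Crebbp ranged only from 8.45 to 8.73, Smoc2 gave Pearson r = 0.74 (exact permutation p = 0.0217, adjusted p = 0.13 over 6 pairs) and Spearman rho = 0.79 (exact permutation p = 0.0279, adjusted p = 0.168). Without Ep300+/- 1 and 4, the 2 arrays farthest from the median Crebbp level, r was 0.45. On the deposited values the relation was thus weaker without them, and it did not pass after adjustment. Without the 2 farthest arrays of the rescaled values, Ep300+/- 3 and 4, r was 0.53 after quantile normalization and 0.70 after median centring. The 8 arrays pool 2 genotypes, which the permutation did not separate.

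Comp against Crebbp gave r = 0.038 (exact permutation p = 0.946, adjusted p = 0.946, and r = 0.15 without Ep300+/- 1 and 4) and rho = 0.36 (exact permutation p = 0.389, adjusted p = 0.642). S100b against Crebbp gave r = 0.14 (exact permutation p = 0.797, adjusted p = 0.946, and r = 0.57 without Ep300+/- 1 and 4) and rho = 0.17 (exact permutation p = 0.703, adjusted p = 0.752). The r of Comp rose to 0.70 after quantile normalization (exact permutation p = 0.0535, adjusted p = 0.16), and was 0.55 after median centring. The r of S100b was 0.50 after quantile normalization and 0.63 after median centring, and that of Smoc2 was 0.76 and 0.80. The sizes for Comp and S100b thus depended on the scaling. After adjustment no relation with Crebbp passed within these 8 arrays under any of these scalings.

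Among themselves, the members gave r = 0.070 for Comp and S100b, 0.032 for Comp and Smoc2 and 0.31 for S100b and Smoc2 over the same 8 arrays (exact permutation p = 0.831, 0.925 and 0.385, each with an adjusted p = 0.946). The rho values were 0.38, 0.14 and 0.33 (exact permutation p = 0.36, 0.752 and 0.428, with adjusted p = 0.642, 0.752 and 0.642). Without the 2 arrays farthest from the median of the first gene of each pair, r was 0.78, 0.37 and -0.19. These r values also moved with the scaling. After quantile normalization they were 0.45 for Comp and S100b, 0.34 for Comp and Smoc2 and 0.21 for S100b and Smoc2, and after median centring 0.46, 0.27 and 0.53 in the same order. None passed. Outside the Crebbp+/- arrays a joint movement of the members was not detectable with 8 arrays.

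**Figure D3:**
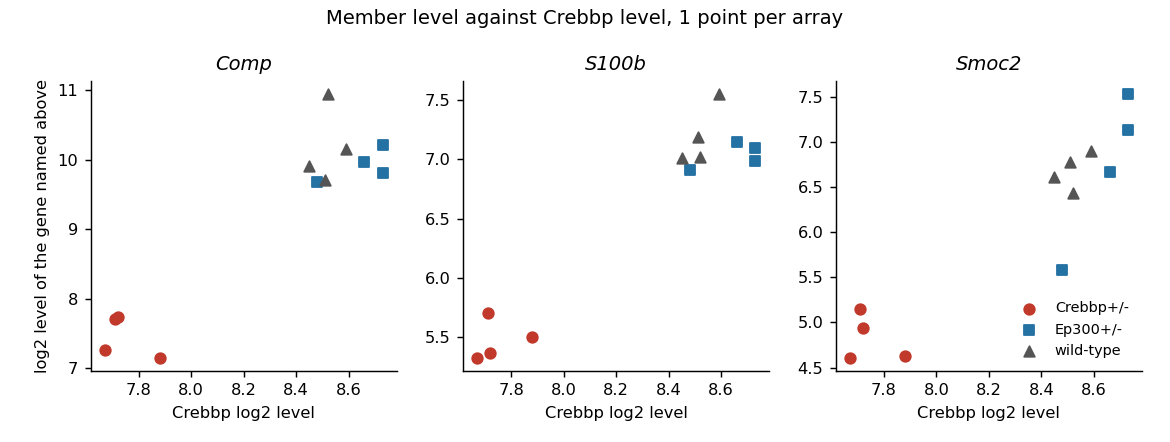
Log2 level of Comp, S100b and Smoc2 (vertical axes) against the log2 level of Crebbp (horizontal axes), 1 point per array. The Crebbp+/- arrays form a separate cluster at low levels of both genes, and the other 8 arrays span only 8.45 to 8.73 in Crebbp.

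The genes most like each member were found by the mean absolute gap between levels over the 12 arrays, each gene first centred on its own mean, among 1973 other genes. Smoc2 and S100b were each other's nearest gene, with a mean gap of 0.30 log2 units; after quantile normalization Lonrf3 was nearest to S100b. Nearest to Comp was Itga10, a collagen-binding integrin subunit of chondrocytes, at 0.42, followed by S100b (0.44), Smoc2 (0.49), Anxa8, an annexin (0.50), and the water channel Aqp1 (0.52). From the side of S100b, Comp ranked 59th, and from the side of Smoc2 it ranked 21st, its Crebbp+/- difference being larger than theirs.

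Next to S100b after Smoc2 came the scavenger receptor Stab1 (0.31), Lonrf3 (0.32), the phosphoinositide 3-kinase subunit Pik3cg (0.32) and Rassf2 (0.33). Next to Smoc2 after S100b came Aqp1 (0.38), Gm2115 (0.39), Zranb3 (0.39) and Itga10 (0.42). The measure includes the low Crebbp+/- arrays, the pattern the members were chosen for.

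Some of these genes stood near their wild-type levels on Crebbp+/- 4. Anxa8 stood at 6.20, 6.39 and 5.90 on Crebbp+/- 1 to 3 and at 8.26 on Crebbp+/- 4, against 8.28 to 8.90 in wild-type stroma. Aqp1 stood at 6.59, 6.08 and 5.87 and then at 7.71, against 7.96 to 9.04 in wild-type stroma. On that array Comp (7.73), S100b (5.37) and Smoc2 (4.94) lay below every wild-type array, which the gaps given above already imply. This was not particular to the members. Itga10 stood there at 5.73, Stab1 at 12.03, Pik3cg at 7.67 and Lonrf3 at 7.60, against lowest wild-type values of 6.52, 12.91, 8.05 and 8.02. Rassf2 (7.44 against 7.68) and Gm2115 (7.27 against 7.37) lay nearer to wild type, and Zranb3 (6.78 against 6.33) overlapped with it.

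**Figure D4:**
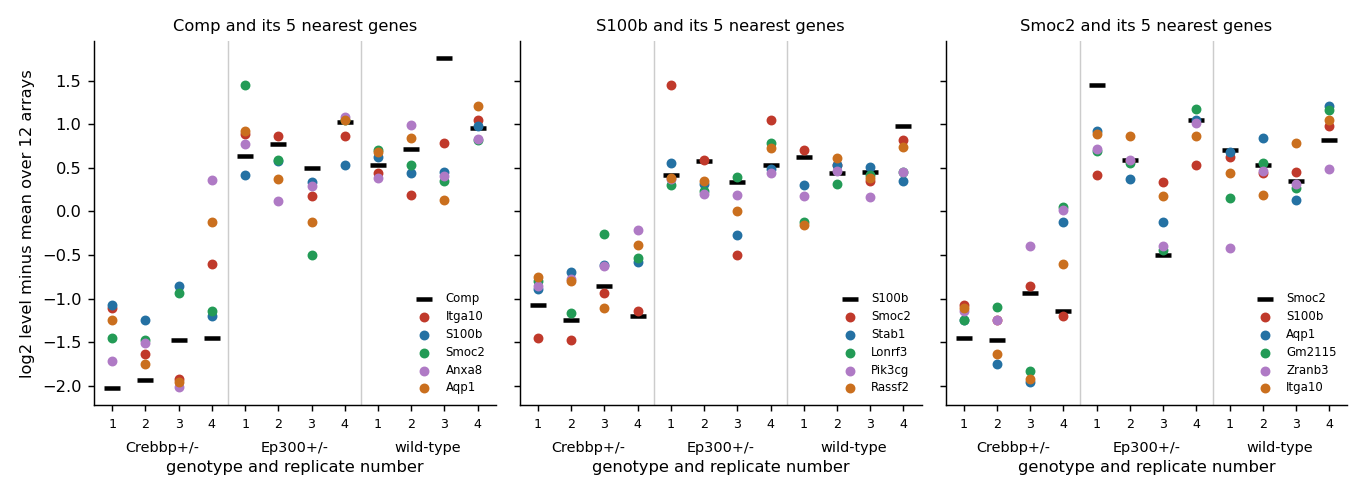
Log2 level minus the gene's own mean over 12 arrays (vertical axis) on each array (horizontal axis, replicates in no order) for each member, drawn as black bars, and its 5 nearest genes, drawn as points. All members are low on the 4 Crebbp+/- arrays, while Anxa8 and Aqp1 lie higher on Crebbp+/- 4 than on the other 3.

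Few other genes of cartilage were kept in the filtered table, and list counts and medians cover only the genes kept. Of 22 cartilage matrix genes 3 were measured, and none passed the test (limma, adjusted p under 0.05 over all probe sets) in Crebbp+/- against wild-type stroma, where 6.18% of all probe sets passed, 5.02% higher and 1.16% lower. A fit blocked on the replicate number called 812 probe sets, against 192 without the block. The list median was -0.80, against 0.24 over all probe sets. Col2a1, the main cartilage collagen, had a positive difference of 0.88 (SE 0.42, limma adjusted p = 0.199). The matrilin Matn2 had -0.80 (SE 0.25, limma adjusted p = 0.0787, and 0.0359 under the block). Matn2 reached at most 6.48 on the Crebbp+/- arrays, under the level of 6.64 given above, so it was in the table through its higher groups. Its pass under the block, and the list median that it sets, are not independent of that selection. Prg4, the joint lubricant lubricin, had -1.22 (SE 0.48, limma adjusted p = 0.134). Against Ep300+/- stroma Prg4 had -1.60 (limma adjusted p = 0.0651), which passed under the block (0.0256). For Acan no probe set was analysed here, and the word cartilage in what follows names lists, not the cells.

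Of 24 cartilage regulators and receptors 7 were measured, and 1 fell, 0 rose and 6 did not pass (median -0.34). Itga10 was at 5.22, 4.68, 4.41 and 5.73 on the Crebbp+/- arrays, against 6.77, 6.52, 7.11 and 7.38 on the wild-type arrays. Its log2 level fell by 1.93 (SE 0.33) with a limma adjusted p = 0.0129, lower in 4 of 4 arrays. Itga10 was put on the list with an earlier result known. It reached at most 5.73 on the Crebbp+/- arrays, under the level of 6.64 given above. Itga10 was therefore in the table through its higher groups. Its pass as lower in Crebbp+/- stroma is not independent of that selection or of the choice of list. The call was lost without wild-type 4 (limma adjusted p = 0.0501), Crebbp+/- 1 (0.0548) or Crebbp+/- 2 (0.0503), without Crebbp+/- 1 and 3 together (0.228) and with Eif2s3y as a covariate (0.266).

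The other regulators had smaller differences. The parathyroid hormone receptor Pth1r had -0.66, the transcriptional repressor Trps1 -0.34 and the ubiquitin ligase Wwp2 -0.46. The transcription factors Runx3 and Mef2c had 0.77 and 0.46, and the TGF-beta receptor Tgfbr2 had 0.96. Under the replicate block Runx3 and Tgfbr2 passed as well (limma adjusted p = 0.0426 and 0.022), both higher. For Sox9, Sox5 and Sox6 no probe set was analysed here.

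Among thrombospondins and matrix partners of COMP 5 of 13 were measured and 0 passed (median 0.68). The thrombospondins Thbs1 and Thbs2 had positive differences of 0.69 and 0.70 (limma adjusted p = 0.137 and 0.139), opposite in sign to Comp, and with the block both passed (0.0206 and 0.0432). The collagens Col3a1 and Col1a2 had 0.68 and -1.42, and fibronectin, Fn1, had 0.15. Col1a2 also passed with the block (limma adjusted p = 0.0346). It reached at most 6.60 on the Crebbp+/- and on the Ep300+/- arrays, under the level of 6.64 given above. Col1a2 was therefore in the table through wild-type arrays, and its pass as lower in Crebbp+/- stroma is not independent of that selection.

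In Crebbp+/- against Ep300+/- stroma Thbs2 was higher by 1.07 (SE 0.28, limma adjusted p = 0.0406), where 6.40% of all probe sets passed, 4.89% higher and 1.51% lower (760 probe sets under the block, against 199). That call was lost without any 1 of the 4 Crebbp+/- or the 4 Ep300+/- arrays, with adjusted p-values from 0.0537 to 0.122, and without wild-type 2 or 4 (0.0603 and 0.0624), after median centring (0.0606), in a fit of 2 genotypes alone (0.101), without Crebbp+/- 1 and 3 together (0.199) and with Eif2s3y as a covariate (0.202).

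Of the S100 family and its receptor 5 of 17 were measured and 0 passed (median 0.067). S100a4 had -1.17 (SE 0.60, limma adjusted p = 0.224). By their probe sets of highest mean, the other 4, S100a1, S100a6, S100a10 and S100a13, lay between 0.046 and 0.24. A further probe set of S100a1 had 0.86 (limma adjusted p = 0.612). Further probe sets of S100a10 had 0.65 and 0.72 (limma adjusted p = 0.58 and 0.686). In the SPARC and SMOC family only Smoc1, the closest relative of Smoc2, was measured of 7, with 0.35 (SE 0.52, limma adjusted p = 0.671). No relative of S100b or Smoc2 passed in any of the comparisons without the block. In Crebbp+/- against Ep300+/- stroma S100a4 had -1.66 (SE 0.60, limma adjusted p = 0.111), which passed under the block (0.0315). Differences between a member and its relatives were not tested, since the members were chosen for theirs.

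**Figure D5:**
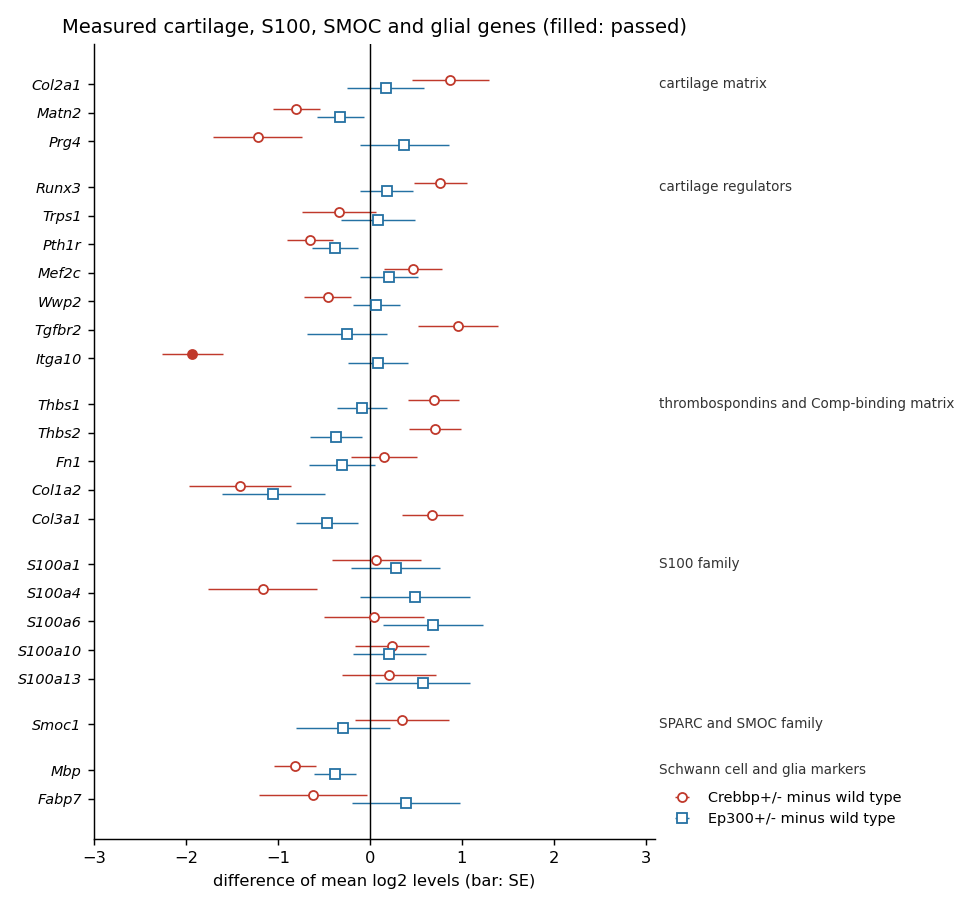
Differences of mean log2 levels (horizontal axis, bars of 1 SE, n = 4 per genotype) for every measured gene of the cartilage, thrombospondin, S100, SPARC and SMOC and glial lists, for Crebbp+/- and Ep300+/- minus wild type. Filled points passed the test, which Itga10 alone did, at -1.93 in Crebbp+/- stroma. Itga10, Matn2 and Fabp7 were in the table through their higher groups, and Col1a2 through wild-type arrays.

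Because S100b also marks Schwann cells and glia, their markers were examined. Of 16 markers 2 were measured, and neither passed in Crebbp+/- against wild-type stroma. Myelin basic protein, Mbp, was at 7.52, 7.62, 7.60 and 7.94 on the Crebbp+/- arrays, against 8.45, 8.51, 8.31 and 8.68 on the wild-type arrays. The groups did not overlap, with a difference of -0.82 (SE 0.23, limma adjusted p = 0.0526), which passed under the block (0.0122). The fatty acid binding protein Fabp7 had -0.62 (SE 0.59, limma adjusted p = 0.519). The mean of both markers ranged from 6.19 to 7.19 in Crebbp+/- and from 6.49 to 7.66 in wild-type stroma, and its part in the S100b difference was not tested. For the defining gene Sox10 no probe set was analysed here.

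Of 10 osteoblast markers 3 were measured, with array means of 8.24 to 8.87 in Crebbp+/-, 8.84 to 9.89 in Ep300+/- and 9.46 to 9.98 in wild-type stroma. The log2 level of the bone sialoprotein Ibsp fell by 1.75 (SE 0.42) with a limma adjusted p = 0.0293, and Alpl, a phosphatase of mineralizing cells, had -1.03 (limma adjusted p = 0.0944, and 0.0322 under the block). The Ibsp call was lost without wild-type 2, 3 or 4 or Crebbp+/- 1, 2 or 3 (limma adjusted p from 0.0554 to 0.112), without Crebbp+/- 1 and 3 together (0.264) and with Eif2s3y as a covariate (0.346). Of 20 tendon and fibrous tissue genes, among which Comp is also expressed, 7 were measured and 0 passed (median -0.056). The small proteoglycan Fmod had -0.62, and Ogn had 1.12, which passed with the block (limma adjusted p = 0.016).

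Of 12 markers of marrow reticular stroma, the cells expected in such cultures, 9 were measured, all with positive differences, and 0 passed (median 0.40). Cxcl12, their defining chemokine, had 0.25 (SE 0.32, limma adjusted p = 0.632) and lay between 13.96 and 14.92 in Crebbp+/- and 13.87 and 14.72 in wild-type stroma. The endothelial list had 8 of 13 genes higher and 0 lower, where 5.02% of all probe sets were higher and 1.16% lower. Its median was 1.98, and the count ran from 0 to 13 as single arrays were left out (0 without wild-type 4, Crebbp+/- 1 or Crebbp+/- 2). Under the block all 13 passed, and with a mean level of at least 7 the count was 6. The list was chosen with earlier results of these data known. Low genes can also enter the table through high Crebbp+/- arrays. In the smooth muscle and pericyte list 2 of 4 measured genes rose (3 under the block), and in the macrophage list 1 of 3, Cd163, rose (2 under the block). In the adipocyte list 1 of 5, Cd36, fell, and the block left that count at 1.

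In Ep300+/- against wild-type stroma 0 genes of any list passed. The list medians were 0.17 for cartilage matrix, 0.087 for cartilage regulators, -0.37 for thrombospondins and matrix partners, 0.49 for the S100 family and -0.38 for osteoblast markers, against 0.049 over all probe sets. Itga10 had 0.087, Col2a1 0.17 and Prg4 0.38, none of which passed. Comparisons with wild type share the wild-type arrays.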

How the data were processed

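The deposited values are log2 levels, and the submitters' processing notes name GCRMA as the method. The sources used here give no version, chip definition or batch. GCRMA corrects background from probe sequence and normalizes between arrays, so low levels may be compressed. Of 3127 probe sets 18 controls were left out and 3109 tested; 2486 had 1 gene symbol, 176 several and 447 none in the platform annotation. Differences were fitted with limma 3.58.1 in R 4.3.3 (lmFit, eBayes) over all 12 arrays without covariates, two-sided, with Benjamini-Hochberg adjustment over all probe sets. Listed genes were taken by their probe set of highest mean. The named genes were the members, Crebbp, Eif2s3y, the 5 nearest genes of each member, every measured gene of the lists cartilage matrix, cartilage regulators, thrombospondins, S100, SPARC and SMOC, and glia, and up to 4 genes of highest mean from every other list; Tnf and the low or absent genes named singly were added after values were seen. The members and lists were chosen with earlier results of these data known. P-values measure the spread between these arrays, whose number limits the precision.

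Replicates 1 to 4 occur in each genotype with no statement of what a number shares. Same-numbered arrays had correlated deviations from their group means, at 0.448 to 0.603 for Crebbp+/- and wild type, 0.294 to 0.513 for Crebbp+/- and Ep300+/-, and 0.059 to 0.683 for Ep300+/- and wild type. Pairing by number was therefore accepted for both Crebbp+/- comparisons, and not for Ep300+/- against wild type. The main fit holds no block, so it leaves that pairing out, and the blocked fit called more probe sets in both Crebbp+/- comparisons. Passed or not passed refers to the main fit unless the block is named. Genes that did not pass in it may pass under the block. The fit was tested on simulated data with independent noise. It recovered 23% of 100 planted log2 differences of 1 and 80% of 100 planted differences of 2. Of its 110 calls 7 were false. A gene that did not pass may therefore still differ. Gene names and the promoter came from RefSeq tables (GRCm38.p6), in which 2482 probe sets matched by gene ID; motifs were chosen after the sequence was seen. The alternatives were quantile normalization, median centring, a mean level of at least 7, fits of 2 genotypes, eBayes with trend and robust, the replicate block, Eif2s3y as a covariate, and leaving out arrays. Background correction and scan batches could not be varied from these values.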

Additional observations from a re-analysis of the deposited data

Results flagged for a closer look

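No level of Comp, S100b, Smoc2 or Crebbp stood apart from its group. Among the listed genes named by rule, 11 of the 153 groups of 4 arrays tested had 1 array far from the other 3, where chance flags about 1 group in 20. Of genes near the members, Itga10 was at 6.51 on Ep300+/- 3 (the others 7.19 to 7.22), Matn2 at 6.83 on wild-type 1 (7.28 to 7.33), and Runx3 at 8.42 on wild-type 4 (7.19 to 7.40). Ep300+/- 3 was also low for Col1a2 at 4.08 (6.32 to 6.60) and Cnn1 at 5.62 (8.0 to 8.35). Crebbp+/- 4 was low for Cxcl12 at 13.96 (14.85 to 14.92), Lpl at 12.01 (13.16 to 13.31) and Rgs5 at 11.69 (13.35 to 13.53). Ep300+/- 4 was low for Myh11 at 5.37 (6.46 to 6.68), Rgs5 at 9.09 (10.88 to 11.24) and S100a10 at 11.35 (12.58 to 12.65).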

How the results depend on the processing

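The Crebbp+/- minus wild-type differences stayed between -2.95 and -2.45 for Comp, -1.91 (median centring) and -1.59 for S100b and -2.10 and -1.77 for Smoc2 under every alternative that kept the gene; a mean level of at least 7 removes S100b and Smoc2. The Ep300+/- minus wild-type differences passed under none, with Smoc2 between -0.22 and 0.43. Leaving out single arrays moved the probe sets called from 192 to between 5 and 383 for Crebbp+/- against wild type, from 199 to between 2 and 374 for Crebbp+/- against Ep300+/-, and from 0 to between 0 and 1 for Ep300+/- against wild type. Of the 65 listed genes measured, 14 passed in Crebbp+/- against wild type (0 to 21 without single arrays) and 19 against Ep300+/- (0 to 20). Under the replicate block the probe sets called were 812, 760 and 1 in the same order, and the listed genes 30 and 29. The replicate block changed no call for the members in Ep300+/- against wild type. With Eif2s3y as a covariate 0 probe sets and 0 listed genes passed in either Crebbp+/- comparison, and without Crebbp+/- 1 and 3 together 4 probe sets passed against wild type, 2 against Ep300+/- and 0 listed genes in either, a fit with fewer arrays. In a fit of 2 genotypes alone 51 probe sets and 9 listed genes passed against Ep300+/-, and 12 listed genes with a mean level of at least 7. The cause of these shifts was not tested. Of the 5 nearest genes, quantile normalization kept 4 for Comp, 4 for S100b and 3 for Smoc2, and median centring kept all.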
